A study of Mus musculus with 6 samples.

Results

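Paneth cells (PCs), secretory cells of the small intestinal crypt that store antimicrobial proteins in granules, had been sorted from C57BL/6J mice labelled IFNAR1 KO, a knockout of a subunit gene of the type I interferon receptor. The 3 PBS mice received the phosphate-buffered saline control and the 3 TNF mice received tumour necrosis factor, each giving 1 RNA library 15 h later. PBS and TNF mice thus shared the strain and the knockout, and no library came from a mouse with intact Ifnar1. The sources used here give no dose, age or sex. Followed here were 8 genes of 55414 in the count table, which encode the epithelial NADPH oxidases, their partners and the inducible nitric oxide synthase. They were Duox2, Duoxa2, Duox1, Nox1, Noxo1, Noxa1, Cyba and Nos2, matched by Ensembl identifier, and 7 of them had enough counts to be fitted. The gene set was put together with the TNF against PBS results of these libraries in view, so the levels and fold changes of the 8 genes are given as a description, without a test.

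DUOX2 is a dual oxidase of the apical membrane of gut epithelium that releases hydrogen peroxide towards the lumen, and DUOXA2 is the maturation factor that lets it leave the endoplasmic reticulum. NOX1 makes superoxide together with the membrane partner encoded by Cyba, the organiser NOXO1, the activator NOXA1 and the GTPase RAC1. NOS2 makes nitric oxide from arginine and needs tetrahydrobiopterin as a cofactor. These enzymes are known in the gut for their part in defence against microbes, and both Duox2 and Nos2 are known to be induced by inflammatory cytokines.

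Total counts were 12747484 to 17039511 per library. TNF replicate 1 stood apart from the other TNF libraries. Its log2 expression values correlated across genes with the PBS libraries at 0.937 to 0.945 (Pearson's r), but with TNF replicates 2 and 3 at only 0.884 and 0.883. It was kept in its labelled group, and the fold changes of the 7 fitted genes and the calls that turn on it are also given without it. Because it was singled out by its likeness to PBS, leaving it out favours larger differences and a smaller spread. The fold changes, adjusted p-values and calls without it are therefore a description and not independent evidence of a change. Ifnar1 itself was counted in every library, at 5.18, 8.86 and 9.53 CPM (counts scaled to a common library size) under PBS against 5.17, 7.76 and 12.7 CPM under TNF, a log2 fold change of 0.12 (SE 0.39 with edgeR, adjusted p 0.925, and 0.39 without TNF replicate 1, adjusted p 0.505). Without a library from intact mice, this level checks nothing about the knockout. All 10 PC markers were detected, but so were all listed enterocyte, goblet, stem, tuft and enteroendocrine cell markers. Detection alone therefore does not bear out the labelled cell type. The PC markers summed to 226300 to 276300 CPM under PBS against 179000 to 342900 CPM in TNF, mostly from Lyz1. The next highest list, that of goblet cells, reached at most 15790 CPM. The other 9 summed to 102700, 74580 and 77760 CPM in PBS against 117200, 45110 and 63610 CPM in TNF replicates 1 to 3. Without TNF replicate 1, edgeR called 1 of the 10 higher and 2 lower, beside 9.1% and 5.4% of all genes.

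Duox2 and Duoxa2 lie head to head on chromosome 2. Duox2 (ENSMUSG00000068452, 122109728 to 122128930 on GRCm39, 33 exons) is on the reverse strand and Duoxa2 (ENSMUSG00000027225, 122129380 to 122133366, 6 exons) on the forward strand, so that 449 bases with no annotated exon separate their starts. The Duoxa1 gene, which encodes the maturation factor of DUOX1, follows on the reverse strand, and Duox1 (ENSMUSG00000033268, 122146153 to 122178453, 33 exons) on the forward strand.

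**Figure D1:**
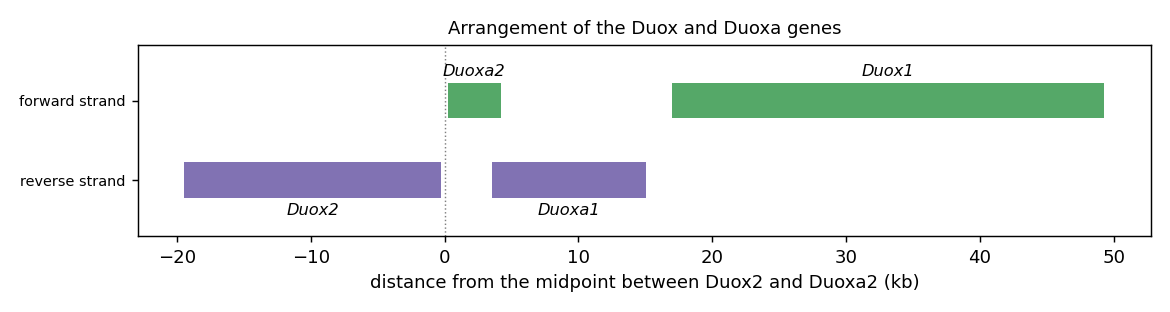
Arrangement of the Duox and Duoxa genes, drawn to scale as distance in kb from the midpoint between the starts of Duox2 and Duoxa2. Bars on the upper row are genes of the forward strand and bars on the lower row genes of the reverse strand; Duox2 and Duoxa2 point away from each other across 449 bases, and the ends of Duoxa2 and Duoxa1 overlap.

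Part of the sequence between the starts of this gene pair is shown because both genes had the same pattern over the libraries, described next. The 300 bases before the annotated start of Duoxa2 (chr2:122129080-122129379, GRCm39, forward strand) are printed with motif matches in capitals. The bases next to the start of Duox2 are not printed. Upstream of Nos2, the 250 bases before its start (chr11:78811363-78811612, GRCm39, forward strand) are given in the same way.
Duox2-Duoxa2: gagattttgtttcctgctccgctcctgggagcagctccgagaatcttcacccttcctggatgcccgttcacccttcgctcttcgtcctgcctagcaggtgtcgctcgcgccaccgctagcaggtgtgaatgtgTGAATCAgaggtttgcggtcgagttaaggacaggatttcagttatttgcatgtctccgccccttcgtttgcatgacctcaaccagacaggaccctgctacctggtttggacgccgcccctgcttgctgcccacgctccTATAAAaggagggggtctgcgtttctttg
Nos2: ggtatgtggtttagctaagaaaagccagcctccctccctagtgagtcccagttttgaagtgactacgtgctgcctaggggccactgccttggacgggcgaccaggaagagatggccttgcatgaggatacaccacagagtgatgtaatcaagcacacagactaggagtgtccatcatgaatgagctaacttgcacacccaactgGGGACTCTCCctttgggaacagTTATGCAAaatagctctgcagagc
Searched on both strands of the 250 bases before the annotated start were the kappaB consensus, GAS (TTCNNNGAA) and ISRE (GAAA, any 2 bases, GAAA). The search also covered C/EBP (TTGCNNAA), TATAAA and TGANTCA, a pattern looser than the AP-1 consensus, whose central base is C or G. Counting upstream from the base before the start as -1, the Duoxa2 window held TATAAA at -29 and a TGANTCA match, TGAATCA, at -167. The central A of this match departs from the AP-1 consensus. The Nos2 window held a kappaB match, GGGACTCTCC, at -46 and a C/EBP match on the reverse strand at -24, and no 2 matches overlapped. Over the 21770 windows of protein-coding genes, 7.62% held a kappaB match, 9.34% C/EBP, 6.17% TGANTCA, 11.9% TATAAA, 7.7% GAS and 3.32% ISRE. The Nox1 window also held a kappaB match on its reverse strand, GGAAAACCCC, at -91, and the windows of Duox2, Duox1, Noxo1, Noxa1 and Cyba held none of the 6 motifs. The annotated start was that of the transcript marked canonical. The windows of Nox1 (chrX:133012604-133012853) and Noxo1 (chr17:24914695-24914944) therefore lie inside the gene spans given below. The Noxo1 window also overlaps annotated exons of Noxo1 and Gfer. These matches describe letters in a window set by the annotated start.

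Duox2 was the more abundant of the dual oxidase genes in these cells. It had 21.3, 20.4 and 21.7 CPM in the PBS libraries against 23.9, 411.5 and 253.5 CPM in TNF replicates 1 to 3. The PBS libraries were close to each other, TNF replicate 1 lay just above them, and TNF replicates 2 and 3 were 19.5- and 12.0-fold above the PBS mean. All 3 TNF libraries were above all PBS libraries on this scale, but without scaling beyond library size TNF replicate 1, at 19.1 CPM, was below PBS. The fitted log2 fold change was 3.44 (SE 0.78), and 3.99 (SE 0.25) without TNF replicate 1. In bulk libraries, more cells with a transcript and more RNA per cell cannot be told apart.

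Duoxa2 followed the same libraries. It had 2.74, 1.80 and 3.37 CPM under PBS against 1.78, 94.5 and 114.4 CPM in TNF replicates 1 to 3. TNF replicate 1 was below all PBS libraries, while TNF replicates 2 and 3 were 35.8- and 43.4-fold above the PBS mean, the highest of the 8 genes in these libraries. The log2 fold change was 4.74 (SE 1.11) over all libraries and 5.33 (SE 0.27) without TNF replicate 1. Per length of exon, there were 0.546, 0.375 and 0.661 Duoxa2 reads for each Duox2 read in the PBS libraries, against 0.317, 0.976 and 1.92 in TNF replicates 1 to 3. The partner gene thus stood lower against Duox2 in every PBS library and in TNF replicate 1 than in TNF replicates 2 and 3. Exons of Duoxa1 on the opposite strand cover 42.8% of the Duoxa2 exons, and whether the counting used strand is not given in the sources used here. Duoxa1 itself had 1, 0 and 0 counts in PBS and 0, 31 and 3 counts in TNF replicates 1 to 3, beside 1935 and 1423 counts of Duoxa2 in the last 2 of these.

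Duox1, the second dual oxidase gene, was near the detection limit. It had 3 counts in each PBS library and 1, 4 and 0 counts in TNF replicates 1 to 3. A limit of 3 counts corresponds to 0.147 to 0.255 CPM in these libraries, so no fold change is given. Duox1 and Duox2 transcripts share 415 stretches of 50 bases, which is 6.05% of those in Duox2. How reads from these stretches were assigned is not given in the sources used here.

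**Figure D2:**
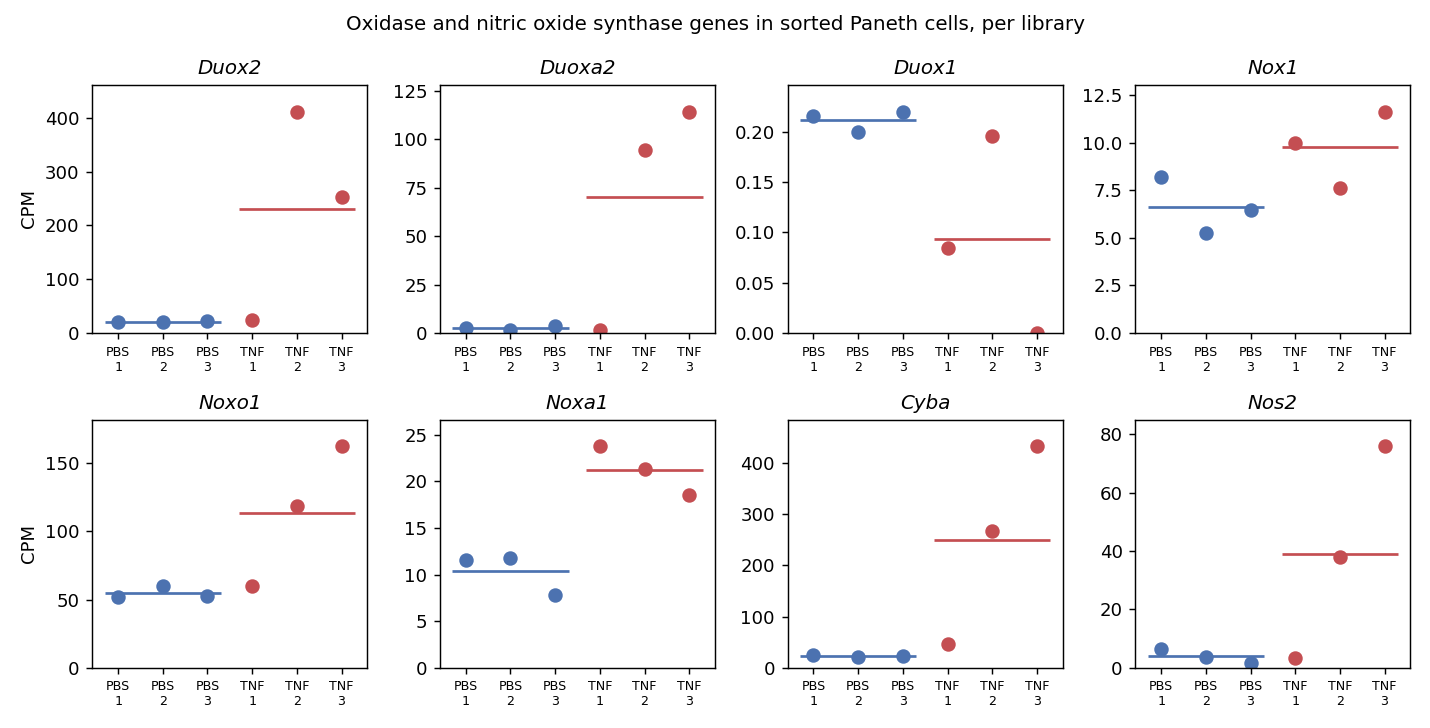
CPM of the 8 genes in each library, with 1 panel per gene, linear axes from 0 that differ between panels, points for single libraries (blue PBS, red TNF) and horizontal lines for group means. For Duox2, Duoxa2, Noxo1 and Nos2 the TNF replicates 2 and 3 are high and TNF replicate 1 is near PBS. For Cyba these 2 are also high, but TNF replicate 1 lies 2.02-fold above the PBS mean. For Noxa1 all 3 TNF points are above PBS, and Duox1 values stand for 0 to 4 counts.

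The NOX1 complex was uneven. Nox1 (ENSMUSG00000031257, chromosome X, 132987170 to 133122705, 13 exons), the catalytic subunit, had 8.21, 5.26 and 6.45 CPM under PBS against 10.01, 7.62 and 11.7 CPM in TNF. The groups overlapped, with TNF replicate 2 inside the PBS range, and the log2 fold change of 0.55 (SE 0.30) hardly moved without TNF replicate 1 (0.55, SE 0.33). On unscaled library size all 3 TNF libraries lay above PBS, at 7.99, 9.16 and 10.7 CPM against at most 7.87 CPM.

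Cyba (ENSMUSG00000006519, chromosome 8, 123150422 to 123159706, 6 exons), the membrane partner that NOX1 shares with the phagocyte oxidase, was the most abundant of the 8 genes in TNF replicates 2 and 3 per length of exon. It had 24.7, 21.9 and 22.3 CPM under PBS against 46.4, 268 and 432.9 CPM in TNF replicates 1 to 3. The groups did not overlap, with or without scaling, and TNF replicate 1 lay 2.02-fold above the PBS mean where the other TNF libraries lay 11.7- and 18.9-fold above it. The log2 fold change was 3.44 (SE 0.65), and 3.95 (SE 0.25) without TNF replicate 1. Exons of Il17c, a cytokine gene on the opposite strand, cover 18.4% of the Cyba exons, but Il17c had only 5, 2 and 1 counts in PBS and 1, 0 and 0 counts in TNF.

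Noxo1 (ENSMUSG00000019320, chromosome 17, 24914682 to 24919504, 9 exons), the organiser, had 51.7, 59.9 and 53.0 CPM under PBS against 59.8, 119 and 162.5 CPM in TNF. TNF replicate 1 was inside the PBS range, and TNF replicates 2 and 3 were 2.17- and 2.96-fold above the PBS mean. The log2 fold change was 1.05 (SE 0.33), and 1.38 (SE 0.21) without TNF replicate 1. Noxo1 shares 52.8% of its exon bases with Tbl3 and 14% with Gfer, both on the opposite strand. Tbl3, a ribosome biogenesis gene, had 21.5 ± 1.96 CPM under PBS against 16.2 ± 5.74 CPM in TNF (SD, n = 3), whereas Gfer, a mitochondrial sulfhydryl oxidase gene, had 20.5 ± 3.92 and 41.9 ± 8.46 CPM. Their part in the Noxo1 counts was not tested.

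Noxa1 (ENSMUSG00000036805, chromosome 2, 24975679 to 24985181, 12 exons), the activator, was higher in TNF replicate 1 to much the same degree as in the other TNF libraries. It had 11.5, 11.8 and 7.77 CPM under PBS against 23.75, 21.3 and 18.5 CPM in TNF replicates 1 to 3. The groups did not overlap, with or without scaling. TNF replicate 1 was the highest here, but on unscaled library size TNF replicate 2 was, at 25.6 CPM against 19.0 and 16.9 CPM in TNF replicates 1 and 3. The log2 fold change was 1.03 (SE 0.25), and 0.96 (SE 0.25) without TNF replicate 1.

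Nos2 (ENSMUSG00000020826, chromosome 11, 78811613 to 78851080, 27 exons), the inducible nitric oxide synthase, had the lowest level per length of the 7 fitted genes in PBS. It had 6.41, 3.80 and 1.76 CPM under PBS against 3.22, 38.1 and 76.0 CPM in TNF replicates 1 to 3. The PBS libraries spread over a wide range in which TNF replicate 1 lay, and TNF replicates 2 and 3 were 9.55- and 19.0-fold above the PBS mean. The log2 fold change was 3.29 (SE 0.90), and 3.85 (SE 0.43) without TNF replicate 1. The neuronal and endothelial synthase genes gave almost nothing, with 0 counts of Nos1 in all libraries and 2 counts of Nos3 in TNF replicate 1 alone.

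With edgeR, 0 of the 7 fitted genes passed a Benjamini-Hochberg adjusted p under 0.05 (5%), as did 0 of the 13026 genes tested (percent called 0). At an unadjusted p under 0.05 there were 6 of the 7, against 12.3% of all genes. Limma-voom called 0 of the 7, and DESeq2 called 3 (Duox2, Duoxa2 and Cyba) in a fit that called 1.09% of 23394 genes. Those 23394 are all genes given a p-value and include low-count genes that the edgeR filter had left out. Without TNF replicate 1, edgeR called 6 of the 7, all higher in TNF, in a fit that called 9.1% of genes higher and 5.4% lower, and Nox1 was the exception. All 3 TNF libraries were above all PBS libraries for 3 of the 7 (Duox2, Noxa1 and Cyba), as for 9.07% of all genes, and below them for 0, against 7.82%. The median log2 fold change of the 7 was 3.29, beside -0.0006 over all genes, and 3.85 beside -0.0071 without TNF replicate 1. Since the set was chosen from this contrast, these counts are given for reference only.

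**Figure D3:**
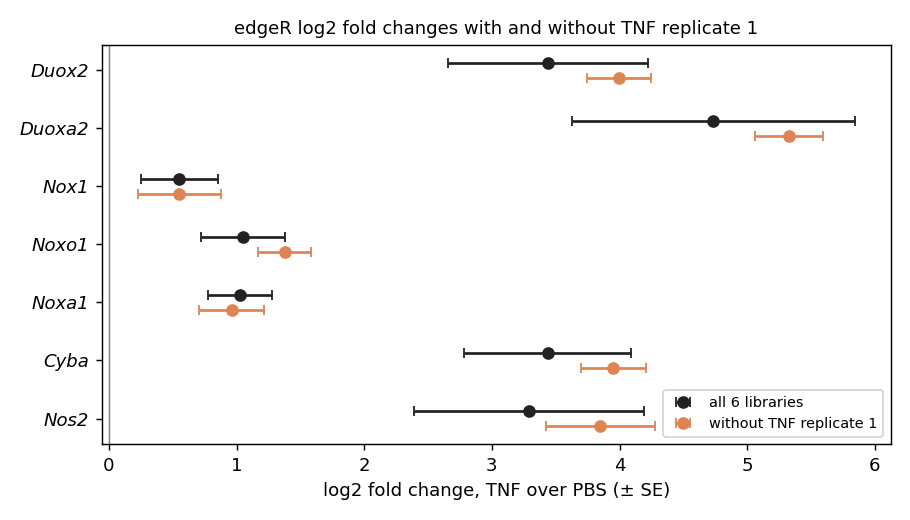
Log2 fold change of TNF over PBS from edgeR for the 7 fitted genes, with the standard error as horizontal bars, for all 6 libraries (black) and without TNF replicate 1 (orange). Duoxa2, Duox2, Cyba and Nos2 lie at 3.29 to 4.74 with all libraries, and Nox1, Noxo1 and Noxa1 at 0.55 to 1.05; the bars of Duox2, Duoxa2, Cyba and Nos2 shorten without TNF replicate 1.

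Levels were also compared between the genes, as CPM per kb of exon. In PBS the order was Noxo1 (12.6 ± 1.01, SD, n = 3), Cyba (9.97 ± 0.654), Noxa1 (6.33 ± 1.37), Duox2 (3.12 ± 0.1002), Nox1 (2.01 ± 0.448), Duoxa2 (1.66 ± 0.497) and Nos2 (0.899 ± 0.525). The libraries of neighbours in this order did not overlap down to Nox1, but Nox1 overlapped Duoxa2 and Duoxa2 overlapped Nos2. In TNF replicate 2 the order was Cyba (116 CPM per kb), Duox2 (60.8), Duoxa2 (59.3), Noxo1 (27.3), Noxa1 (13), Nos2 (8.58) and Nox1 (2.303). In TNF replicate 3 it was Cyba (188 CPM per kb), Duoxa2 (71.8), Duox2 (37.4), Noxo1 (37.3), Nos2 (17.1), Noxa1 (11.3) and Nox1 (3.52). With the longest transcript as length, Noxo1 (51.1) stood above Duox2 (41.5) in TNF replicate 3. The catalytic subunit Nox1 was last in these libraries. In TNF replicate 1 the order was Cyba (20.1 CPM per kb), Noxa1 (14.5), Noxo1 (13.7), Duox2 (3.53), Nox1 (3.03), Duoxa2 (1.118) and Nos2 (0.726), so that Nox1 stood above Duoxa2 and Nos2 as in PBS, and Noxa1 and Noxo1 swapped with the longest transcript. Per length, Cyba stood 4.32- to 5.98-fold above Nox1 in PBS, 6.65-fold in TNF replicate 1, and 50.5- and 53.3-fold in TNF replicates 2 and 3. Noxo1 stood 4.78- to 8.64-fold above Nox1 in PBS, and 4.53-, 11.9- and 10.6-fold in TNF replicates 1 to 3. Summed over the 8 genes, the level was 127, 125 and 117 CPM in PBS, 169 CPM in TNF replicate 1, and 960.2 and 1069 CPM in TNF replicates 2 and 3.

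**Figure D4:**
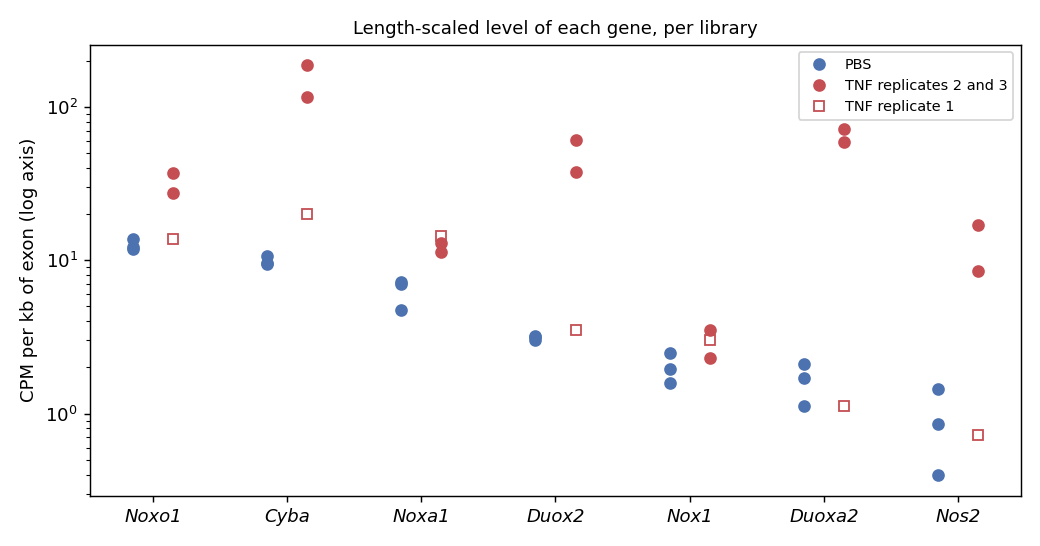
CPM per kb of exon on a log axis for the 7 fitted genes, ordered by their PBS mean, with 1 point per library (blue PBS, filled red TNF replicates 2 and 3, open squares TNF replicate 1). In PBS the genes lie between 0.397 (Nos2) and 13.7 (Noxo1); in TNF replicates 2 and 3 Cyba, Duox2 and Duoxa2 lie highest.

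Over the 6 libraries, the log2 levels of Duox2, Duoxa2, Noxo1, Cyba and Nos2 correlated with each other at 0.927 to 0.981 (Pearson's r), a description that rests on the gap between TNF replicates 2 and 3 and the other 4 libraries. Nox1 and Noxa1 correlated with these 5 genes at 0.435 to 0.675. The genes whose pattern was most like that of a member were sought among 9760 genes. For Duox2 they were Arpc1b (0.999), Cirbp and Trim25 (both 0.998), and for Duoxa2 Ctnnb1 (0.997), Tmem50b and Gpx2 (both 0.996). For Cyba they were S100a10, Cib1 (both 0.998) and Tmem18 (0.997), for Noxo1 Sntb2 (0.999), Btg1 (0.997) and Bcl10 (0.993), and for Nos2 Hilpda (0.997), Ap2s1 (0.994) and Mrtfb (0.993). For Nox1 they were Rpl37rt (0.995), Grwd1 (0.980) and Ppp1r35 (0.978), and for Noxa1 Pum2 (0.994), Phb2 (0.981) and Mettl13 (0.980). Arpc1b, a subunit of the actin-nucleating Arp2/3 complex, had 53.7 to 55.8 CPM under PBS against 54.7, 230 and 182.4 CPM in TNF replicates 1 to 3, close to the Duox2 pattern at a smaller difference.

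The phagocyte oxidase and other NADPH oxidase genes were examined as a list of 13, of which 6 were fitted. With edgeR 0 of the 6 passed 5% and 0 had an unadjusted p under 0.05. Limma-voom and DESeq2 also called 0, with 0 and 2 at an unadjusted p under 0.05. The median log2 fold change was 0.18, and 0.58 without TNF replicate 1. Cybb, the catalytic subunit of the phagocyte oxidase, had 3, 0 and 0 counts in PBS and 0, 1 and 1 counts in TNF, and Ncf1, its organiser, had at most 3 counts, so that the 2 defining subunits of that oxidase were at or near 0 in every library. Nox3 and Nox4 had 0 counts throughout. Rac1, which the NOX1 complex needs, had 121.6, 65.3 and 84.0 CPM under PBS against 86.5, 190.7 and 161.7 CPM under TNF, a log2 fold change of 0.70 (SE 0.34 with edgeR, adjusted p 0.439), and was the 1 gene of the list that rose without TNF replicate 1 (0.98, SE 0.26, adjusted p 0.0280, against 0.0280 to 0.920 over all alternatives). Rap1a and Cybc1 had log2 fold changes of 0.18 (SE 0.20) and -0.07 (SE 0.26), with adjusted p-values of 0.754 and 0.936 from edgeR, and the sign of Cybc1 turned without PBS replicate 3 or TNF replicate 3.

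Of 18 genes for arginine, nitric oxide and tetrahydrobiopterin, 15 were fitted and 0 passed 5% with edgeR, with 1 at an unadjusted p under 0.05. Limma-voom called 0, with 0 at an unadjusted p under 0.05, and DESeq2 called Gch1. The list's median log2 fold change was 0.08, and -0.01 without TNF replicate 1. Gch1, the gene of the first enzyme of tetrahydrobiopterin synthesis, had 1.51, 1.93 and 3.45 CPM under PBS against 1.53, 16.9 and 24.3 CPM under TNF, the same split of libraries as Nos2, a log2 fold change of 2.63 (SE 0.79 with edgeR, adjusted p 0.290). Without TNF replicate 1 it rose by 3.18 (SE 0.36, adjusted p 2.55e-04, against 1.20e-07 to 0.897 over all alternatives). The other named genes of this list did not pass the test in either fit. Slc7a1, an arginine transporter, had 94.3 ± 20.04 CPM under PBS against 74.9 ± 3.98 CPM in TNF (adjusted p 0.569). Odc1, which turns ornithine into polyamine precursors, had 67.9 ± 2.94 and 78.9 ± 2.31 CPM (adjusted p 0.662), and Ass1, which makes the precursor of arginine, had 12.5 ± 5.75 and 17.0 ± 7.11 CPM (adjusted p 0.683).

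Of 23 peroxidases, scavengers and peroxide channels, 15 were fitted, and 13 of the 15 were higher in TNF, beside 6508 of 13026 genes. With edgeR 0 passed 5%, and 5 had an unadjusted p under 0.05 beside 12.3% of all genes. Limma-voom called 0, also with 5 at an unadjusted p under 0.05, and DESeq2 called 2 (Txn1 and Prdx1). The list's median log2 fold change was 0.32, and 0.49 without TNF replicate 1. Gpx2, the glutathione peroxidase of gut epithelium, had 233.4, 233.5 and 262.2 CPM under PBS against 216.3, 2608 and 2652 CPM under TNF, a log2 fold change of 2.91 (SE 0.75 with edgeR, adjusted p 0.270). Without TNF replicate 1 it rose by 3.46 (SE 0.25, adjusted p 1.325e-05, against 1.329e-09 to 0.897 over all alternatives). Txn1 (thioredoxin), Prdx1 (a peroxiredoxin) and Gpx1 had log2 fold changes of 1.20 (SE 0.33), 0.94 (SE 0.28) and 0.71 (SE 0.22), with adjusted p-values of 0.278, 0.284 and 0.293, and in each the lowest TNF library exceeded the highest PBS library. On unscaled library size this held for Gpx1, whereas TNF replicate 1 lay within the PBS range for Txn1 and Prdx1. With scaling, all TNF libraries were above all PBS libraries for 5 of the 15 genes, beside 9.07% of all genes. Without TNF replicate 1, edgeR called 6 of 16 genes higher (Gpx1, Gpx2, Prdx1, Sod1, Txn1 and Txnrd1) and 0 lower, beside 9.1% of all genes higher. Sod1 and Txnrd1 are named after their values were seen. Of the heme peroxidases, which use hydrogen peroxide as a substrate, Mpo and Epx had 0 counts in every library and Lpo had at most 9, whereas Pxdn, named after its values were seen, had 7.44 ± 1.46 CPM under PBS against 7.77 ± 4.81 CPM in TNF.

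Receptors and transcription factors known to act upstream of Duox2 or Nos2 were a list of 16, of which 15 were fitted. With edgeR 0 passed 5% and 6 had an unadjusted p under 0.05, beside 12.3% of all genes. Limma-voom called 0, also with 6 at an unadjusted p under 0.05, and DESeq2 called 2 (Ifngr1 and Ifngr2). The median log2 fold change was 0.50, and 0.81 without TNF replicate 1. All TNF libraries were above all PBS libraries for 5 of the 15 and below them for 1, beside 9.07% and 7.82% of all genes. For both chains of the interferon-gamma receptor the lowest TNF library exceeded the highest PBS library, but on unscaled library size this held for Ifngr1 and not for Ifngr2, which had 30.1 CPM in TNF replicate 1 and up to 33.2 CPM in PBS. Ifngr1 had 27.2 ± 4.65 CPM under PBS against 56.9 ± 12.8 CPM under TNF, a log2 fold change of 1.07 (SE 0.24 with edgeR, adjusted p 0.270), and Ifngr2 had 32.2, 23.5 and 31.0 CPM under PBS against 37.8, 162 and 147.6 CPM under TNF, a log2 fold change of 2.00 (SE 0.47, adjusted p 0.270). Ripk2, a kinase that acts below the bacterial sensor NOD2, had 1.96 ± 0.492 CPM under PBS against 5.21 ± 2.07 CPM under TNF, a log2 fold change of 1.41 (SE 0.47, adjusted p 0.311). Nfkbiz, an atypical NF-kB regulator, was lower in all 3 TNF libraries, at 26.0, 9.33 and 11.6 CPM against 28.7, 37.97 and 30.6 CPM in PBS (-1.06, SE 0.37, adjusted p 0.324). Hif1a, a hypoxia factor, had 38.7 ± 3.61 CPM under PBS against 56.0 ± 20.6 CPM under TNF, a log2 fold change of 0.53 (SE 0.28, adjusted p 0.472). Without TNF replicate 1, edgeR called 7 of the 15 genes higher (Ifngr1, Ifngr2, Ripk2, Hif1a, Nfkb1, Il17rc and Tlr4) and Nfkbiz lower, beside 9.1% of all genes higher and 5.4% lower, where the last 3 of the 7 are named after their values were seen. In the same fit Ifngr2 rose by 2.44 (SE 0.21, adjusted p 4.107e-05, against 1.411e-09 to 0.897 over all alternatives). Nfkbiz fell by 1.62 on the log2 scale (SE 0.23, adjusted p 0.00114, against 0.00114 to 0.918 over all alternatives).

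**Figure D5:**
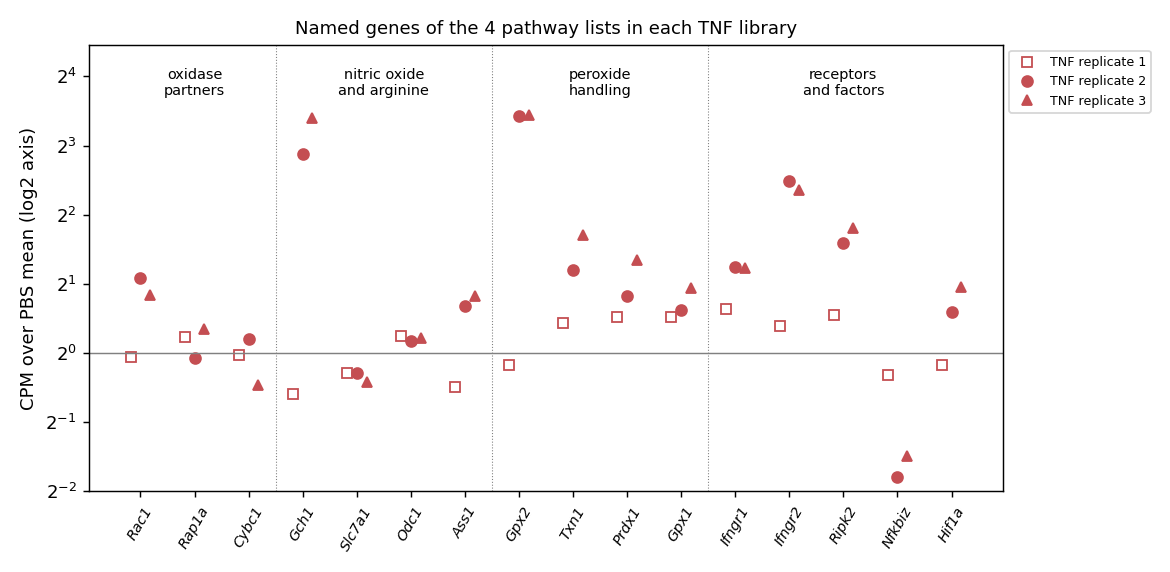
CPM of 16 named pathway genes in each TNF library divided by the PBS mean, on a log2 axis with a line at 1, in 4 groups from left to right. Gch1, Gpx2 and Ifngr2 lie far above the line in TNF replicates 2 (circles) and 3 (triangles) and near it in TNF replicate 1 (open squares), and Nfkbiz lies below the line.

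Markers of other cells were read beside these results. Cyba and Nos2 are also expressed by macrophages and neutrophils, and the 12 markers of these cells summed to 21.9 to 54.6 CPM under PBS against 36.9 to 45.04 CPM in TNF, so that every TNF library lay within the PBS range. Most of this sum came from Lyz2 and Ptprc, so it says little about the other markers of the list. Single neutrophil markers did differ. S100a8 had 0 counts in PBS and TNF replicate 1, but 2 and 4 counts in TNF replicates 2 and 3. S100a9 had 0 counts in each PBS library and in TNF replicate 1, but 26 and 13 counts in TNF replicates 2 and 3, and Ly6g had 27 counts in TNF replicate 2 and 0 elsewhere. The macrophage marker Adgre1 had 0, 5 and 3 counts in PBS and 0 in each TNF library. Cx3cr1, Csf3r and Fcgr1 were at 0 in every library, and 6 of the 12 markers never reached 10 counts. Tuft cell markers summed to 424, 1183 and 1476 CPM under PBS against 496, 974 and 539 CPM in TNF replicates 1 to 3, a split unlike that of Duox2. Enterocyte markers summed to 318 to 365 CPM in PBS, 271 CPM in TNF replicate 1, and 119 and 89.8 CPM in TNF replicates 2 and 3. Without TNF replicate 1, edgeR called 7 of the 10 lower and 0 higher, beside 5.4% of all genes lower and 9.1% higher. With all libraries only 7 of the 10 had been fitted. Alpi, Apoa4 and Lct entered the smaller fit through PBS libraries alone, so a call in the other direction was hardly possible for them. Apoa4 and Lct are among those called, and these genes are named after their values were seen. Stem cell markers summed to 2774 to 3339 CPM under PBS against 4895, 1225 and 1009 CPM in TNF replicates 1 to 3, a split that Olfm4 carried. The other 7 stem cell markers summed to 853 to 969 CPM in PBS and to 1015, 992.5 and 738 CPM in TNF. Still, 3 of the 8 were called lower without TNF replicate 1, beside 5.4% of all genes. Goblet cell markers summed to 12380 to 13640 CPM under PBS against 15790, 7902 and 12040 CPM in TNF, mostly from Spink4. Of the 8, 5 were called lower without TNF replicate 1, beside 5.4% of all genes. Among these was Zg16, named after its values were seen. It had 51.8, 42.8 and 44.2 CPM under PBS against 49.03, 4.199 and 8.76 CPM in TNF replicates 1 to 3. Muc2, Agr2 and Spink4 of the same list were not called and did not separate the libraries in this way. Muc2 had 1479, 1857 and 1108 CPM under PBS against 887, 2575 and 1437 CPM in TNF replicates 1 to 3. Enteroendocrine markers summed to 48.5 to 128 CPM under PBS against 37.9 to 136 CPM in TNF. The enterocyte sum, the PC sum without Lyz1, Olfm4 and Zg16 thus separated the same libraries as Duox2, Duoxa2, Cyba and Nos2 but in the opposite direction. S100a9 separated these libraries in the same direction. Their part in the results was not tested.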

How the data were processed

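Per the labels, the authors isolated total RNA from sorted cells and sequenced single-end reads on an Element AVITI; the submitters' processing notes name FastQC, Trimmomatic 0.39, STAR 2.7.10a, DESeq2 and build mm39. The sources used here do not give how reads were counted, against which annotation and with or without strand. The deposited values were raw counts per Ensembl gene, whole numbers in 6 library columns. Symbols, positions and exon lengths came from GENCODE vM39 (GRCm39, the assembly of mm39), which matched 54749 of 55414 identifiers, and sequences from the same assembly.

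Groups and replicate numbers came from the sample labels. In R 4.3.3, edgeR 4.0.16 kept genes by filterByExpr (minimum count 10, minimum total 15), scaled libraries with TMM factors and tested TNF against PBS by quasi-likelihood, two-sided, with Benjamini-Hochberg adjustment over 13026 genes. CPM values use TMM-scaled library sizes. The SE is the log2 fold change over the square root of F. Scripts were tested on simulated data. A count of 3 was the detection limit, which covers counting error only. The 3 genes most like a member were taken by Pearson's r of log2 CPM (prior count 2) among tested genes whose mean log2 CPM reached 2. Genes of the pathway lists were named by the 4 smallest unadjusted p-values and the 2 highest mean CPM in each list. Some genes of these lists are not reported here. Per the design text, each library came from a different mouse.

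The members and lists were chosen with earlier results of these data known. Same-numbered PBS and TNF libraries did not deviate together. Alternatives were RLE, library-size and upper-quartile scaling, no filter, leaving out each library, a replicate block, DESeq2 1.42.0, limma-voom (limma 3.58.1) with and without sample weights, a 1% threshold and the longest transcript as length.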

Additional observations from a re-analysis of the deposited data

How the results depend on the processing

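The design has 3 libraries per group, and TNF replicate 1 sets the spread of the TNF group for most of the 8 genes. The count of genes past 5%, 0 with edgeR over all libraries, stayed 0 with RLE, upper-quartile or library-size scaling, the 1% threshold, the replicate block and limma-voom. It was 690 with no low-count filter, 254 with DESeq2 and 1501 with limma-voom and sample weights. Leaving out 1 library gave 0 to 1980 genes. For the 8 genes the count of 0 became 6 with no filter, 3 with DESeq2, 6 with sample weights and 0 to 6 when 1 library was left out. For the other oxidase genes it became 1 with sample weights and 0 to 1 when 1 library was left out. For nitric oxide and arginine genes it became 1 with no filter, 1 with DESeq2, 2 with sample weights and 0 to 2 when 1 library was left out. For peroxide handling the counts were 2, 2, 5 and 0 to 6 in the same order, and for upstream receptors and factors 3, 2, 4 and 0 to 8. In each case the highest count on leaving out 1 library came without TNF replicate 1, and the cause was not tested. The 7 fitted genes were higher in TNF under all 14 alternatives, with log2 fold changes of 2.65 to 3.99 for Duox2, 3.48 to 5.33 for Duoxa2, 2.78 to 3.95 for Cyba, 2.39 to 4.001 for Nos2, 0.71 to 1.38 for Noxo1, 0.82 to 1.13 for Noxa1 and 0.41 to 0.74 for Nox1. The log2 fold change of Cybc1 turned to 0.01 without PBS replicate 3 and 0.10 without TNF replicate 3 (range on leaving out 1 library -0.26 to 0.10), and no other named pathway gene changed sign.

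With the replicate number as a block, edgeR called 0 genes, with 1395 at an unadjusted p under 0.05 against 1596 without the block. Same-numbered libraries correlated in their deviations from the group means at -0.0128, -0.0748 and 0.0311, so the numbers were not taken to pair the mice. With the longest annotated transcript as length, 5 of 16 length-scaled group means moved by more than the replicate SD (Duox2, Noxo1 and Cyba in PBS, and Nox1 in both groups).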
